A study of Mus musculus with 3 samples.

Results

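The 9 genes described here, Lhx2, Emx2, Pax6, Gsx1, Gsx2, Dlx1, Dlx2, Nkx2-2 and Barx2, encode homeodomain transcription factors, most of which mark territories of the embryonic brain. They were taken by symbol from the 27999 entries of the single-cell count tables, and each symbol matched 1 entry. The working label of the group also speaks of forkhead factors, but no forkhead gene is among these 9. Cells were sorted for GFP from 3 brain tumours of mice, named here tumours 1, 2 and 4 as the labels number them. All 3 carried the same alleles, H3f3a K27M (a histone H3.3 change), Pdgfra D842V (an activated growth factor receptor) and Trp53 R270H (an altered tumour suppressor). The mice were heterozygous for Gt(ROSA)26Sortm4(ACTB-tdTomato,-EGFP)Luo, a reporter at the Rosa26 locus, on a B6.129 background. Brains were electroporated on postnatal days 1 to 2 with MADR plasmids (a method of inserting transgenes at a defined locus), and were collected on postnatal day 150 (tumour 1), 106 (tumour 2) or 149 (tumour 4). No control group was analysed here, the promoters of the transgenes are not stated in the labels, and these do not say which part of the brain each tumour lay in. Each tumour is 1 animal of 1 age in 1 library, and these cannot be told apart.

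Regional homeobox genes divide the embryonic neural tube into domains. In the forebrain, Pax6 and Emx2 are active in progenitors of the dorsal part (the pallium), Lhx2 in much of the cortical and eye primordium, and Gsx2, Gsx1, Dlx1 and Dlx2 act one after another in the ventral ganglionic eminences, where Dlx genes drive interneuron production. Nkx2-2 marks a ventral domain of the neural tube and is later used again when oligodendrocyte progenitor cells (OPCs) mature, whereas Barx2, a Bar-class factor, is better known from muscle and epithelia. Several of these genes also remain active in the stem cell niche along the lateral ventricle after birth.

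On the mouse build GRCm38 (mm10), Lhx2 (ENSMUSG00000000247), Pax6 (ENSMUSG00000027168), Dlx1 (ENSMUSG00000041911), Dlx2 (ENSMUSG00000023391) and Nkx2-2 (ENSMUSG00000027434) lie on chromosome 2. Their GENCODE gene bodies are chr2:38339281-38369733 on the plus strand, chr2:105668900-105697364 on the plus strand, chr2:71528113-71533981 on the plus strand, chr2:71543408-71546754 on the minus strand and chr2:147177546-147194243 on the minus strand. Dlx1 and Dlx2 are neighbours that converge, 9426 bases apart. Emx2 (ENSMUSG00000043969) is at chr19:59458372-59465357 on the plus strand, Gsx1 (ENSMUSG00000053129) at chr5:147188696-147190947 on the plus strand and Barx2 (ENSMUSG00000032033) at chr9:31846044-31913462 on the minus strand. Gsx2 (ENSMUSG00000035946), at chr5:75075601-75077893 on the plus strand, ends 74398 bases before Pdgfra, the gene whose altered form was introduced. Antisense genes share exon sequence with Emx2 (Emx2os, 264 bases), Dlx1 (Dlx1as, 335 bases) and Nkx2-2 (Nkx2-2os, 278 bases). The sources used here do not say whether counting used the strand, so reads in those stretches cannot be told apart.

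RefSeq promoters (GRCm38.p6) were matched for 8 of the 9 genes. The 250 bases before the start are shown for the Dlx pair, whose transcripts were found in the same tumour and often the same cells, and for Gsx2 and Nkx2-2, which with Dlx2 hold the letters CACGTG, a form of the E-box to which basic helix-loop-helix proteins bind. Capitals mark that motif. The windows are chr2:71529195-71529444 (plus strand) for Dlx1, chr2:71546755-71547004 (minus strand) for Dlx2, chr5:75075351-75075600 (plus strand) for Gsx2 and chr2:147186403-147186652 (minus strand) for Nkx2-2. The RefSeq starts of Dlx1 and Nkx2-2 differ from the GENCODE starts, and these windows lie inside the GENCODE gene bodies given above.
Dlx1: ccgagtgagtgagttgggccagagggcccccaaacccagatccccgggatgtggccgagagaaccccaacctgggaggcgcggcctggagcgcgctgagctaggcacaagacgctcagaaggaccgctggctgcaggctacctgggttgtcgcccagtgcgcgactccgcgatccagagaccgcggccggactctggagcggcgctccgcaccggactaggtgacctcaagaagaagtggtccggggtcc
Dlx2: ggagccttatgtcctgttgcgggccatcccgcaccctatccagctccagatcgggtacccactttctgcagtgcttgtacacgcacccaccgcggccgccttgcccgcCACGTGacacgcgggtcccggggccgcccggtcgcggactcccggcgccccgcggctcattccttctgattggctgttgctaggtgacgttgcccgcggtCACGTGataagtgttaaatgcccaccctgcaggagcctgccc
Gsx2: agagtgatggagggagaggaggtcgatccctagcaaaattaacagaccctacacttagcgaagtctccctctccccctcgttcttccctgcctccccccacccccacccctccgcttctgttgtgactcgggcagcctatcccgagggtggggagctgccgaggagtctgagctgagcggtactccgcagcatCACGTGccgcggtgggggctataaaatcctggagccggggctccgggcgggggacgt
Nkx2-2: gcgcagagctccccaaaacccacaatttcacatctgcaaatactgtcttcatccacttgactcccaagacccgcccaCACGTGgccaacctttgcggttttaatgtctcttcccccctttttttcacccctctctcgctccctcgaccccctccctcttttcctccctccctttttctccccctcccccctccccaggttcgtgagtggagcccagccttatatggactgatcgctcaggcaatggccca
The motif reads the same on both strands and was found 2 times in the Dlx2 window and 1 time each in those of Gsx2 and Nkx2-2, but not in the Dlx1 window. Of 32851 mouse promoter windows of this length, 6.02% hold it. The letters TAATTA, a core that many homeodomains bind, were in none of the members' 10 windows and in 4.84% of all. A match is a description of the letters and not of a bound site.

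Depth and cell classes set what can be read from these genes. The tables held 3386, 1632 and 4624 barcodes with 47120617, 15231673 and 53551127 unique molecular identifiers (UMIs, which count captured transcripts) in tumours 1, 2 and 4. After filtering, 3361, 1548 and 4377 cells remained, of which 3090, 1054 and 4294 were neural, that is, in clusters with glial or neuronal markers. Clusters were made without the 9 genes and named from marker lists, but other regional genes were not kept out. OPC-like cells numbered 2191, 85 and 3354, and microglia-like cells 173, 363 and 83. Oligodendrocyte-like cells were named in tumour 2 (238 cells) and tumour 4 (72), neuroblast-like cells in the same tumours (90 and 115), and committed OPC-like cells in tumour 2 alone (140). The libraries shared 6 to 20 barcodes per pair. Most cells held few of these transcripts, and 590 of 3090 neural cells of tumour 1, 447 of 1054 of tumour 2 and 2136 of 4294 of tumour 4 held UMIs of 2 or more different members. Levels (CPM) are summed UMIs of a gene per 1000000 UMIs of the same cells, intervals are exact Poisson at 95% and cover counting error only, and a lower level in a group of cells cannot be told apart from fewer cells with the transcript. Since there is 1 library per tumour, no test was made between tumours.

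Emx2, Nkx2-2 and Barx2 reached 10 CPM in the neural cells of every tumour, whereas Pax6 and the Dlx genes did so in 1. At least 10 CPM in neural cells was reached by 4 of the 9 genes in tumour 1, 7 in tumour 2 and 6 in tumour 4. Pax6, Dlx1 and Dlx2 reached it in tumour 2 alone, and Gsx2 in tumour 4 alone. Gsx1, at 9.25 CPM in tumour 2, lay just under that level. Over the alternatives tried these counts moved by at most 1 gene.

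**Figure D1:**
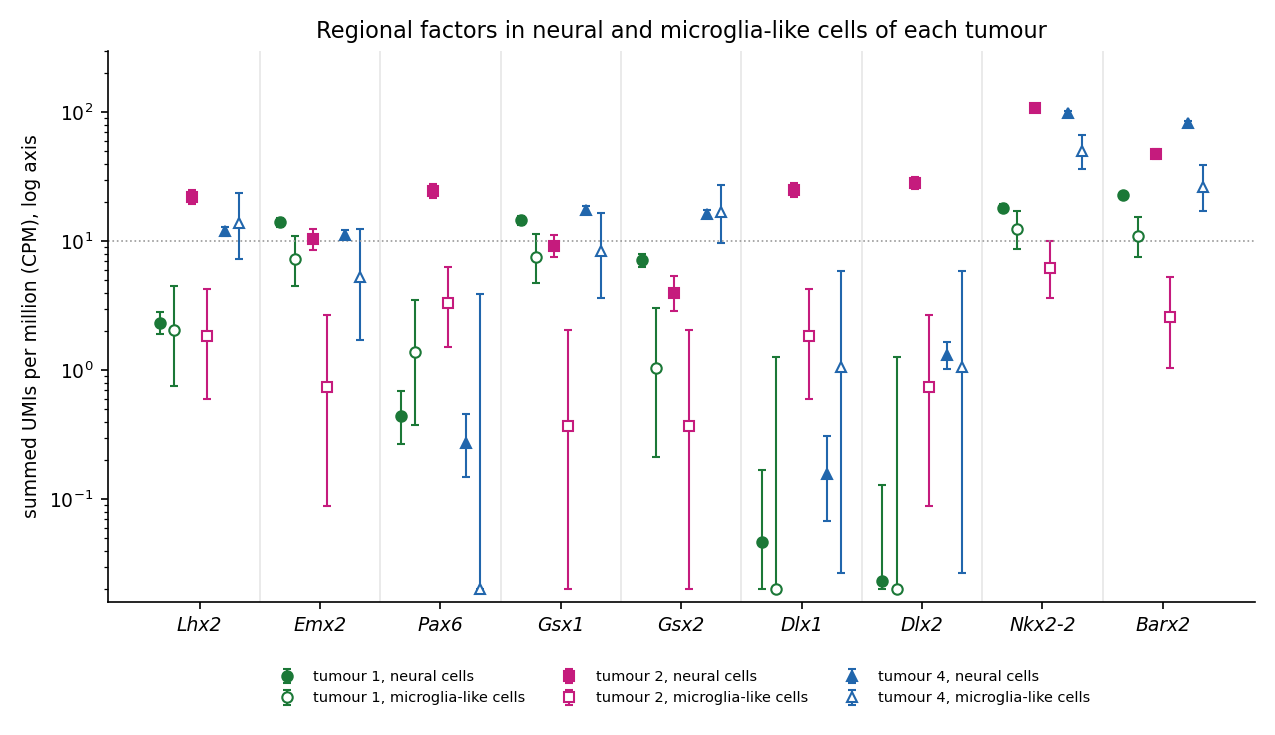
Summed UMIs as CPM (log axis) of the 9 genes in neural cells (filled) and microglia-like cells (open) of tumours 1, 2 and 4, with exact 95% Poisson intervals. The dotted line is at 10 CPM and values under 0.02 CPM are drawn at 0.02. Pax6, Dlx1 and Dlx2 of neural cells stand at 24.5 to 28.3 CPM in tumour 2 and at most 1.31 CPM in the other tumours, whereas Emx2 lies between 10.4 and 14.03 CPM in all 3.

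Among the dorsal and general forebrain factors, Emx2, needed for growth of the hippocampus and patterning of the cortex, was the most even. In the neural cells it had 14.03 CPM (interval 12.9 to 15.2) for tumour 1, 10.4 (8.53 to 12.5) for tumour 2 and 11.2 (10.3 to 12.2) for tumour 4, a mean of 11.9 ± 1.92 (SD, n = 3). The levels of tumours 2 and 4 did not differ beyond their intervals. Lhx2, a LIM-homeodomain factor that keeps cortical progenitors dividing and specifies cortex over hem, had 2.33 CPM (1.89 to 2.83) for tumour 1, 22.03 (19.3 to 25.01) for tumour 2 and 11.97 (11.04 to 12.96) for tumour 4. Its 3 intervals were apart, with tumour 2 the highest and tumour 1 the lowest. Pax6, which drives neurogenesis in dorsal progenitors and in olfactory neuroblasts, had 19 UMIs (0.442 CPM) for tumour 1, 265 (24.5 CPM) for tumour 2 and 14 (0.274 CPM) for tumour 4. Tumours 1 and 4 overlapped in their intervals and both were far below tumour 2.

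Of the ventral factors, both Gsx genes were present in each tumour and the Dlx genes, which act after them in normal ventral forebrain, in tumour 2 alone at more than 2 CPM over all neural cells. In tumour 4 the oligodendrocyte-like cells had 11.2 CPM of Dlx2 (5.13 to 21.3, 9 UMIs). Gsx1 had 14.5 CPM (13.4 to 15.7) for tumour 1, 9.25 (7.53 to 11.3) for tumour 2 and 17.6 (16.5 to 18.8) for tumour 4. Gsx2 had 7.10 CPM (6.32 to 7.94), 3.98 (2.88 to 5.36) and 16.3 (15.2 to 17.5) in the same order. For both genes tumour 4 was highest and tumour 2 lowest, and no 2 tumours overlapped. Dlx1 was read 2 times in tumour 1 (0.0465 CPM), 271 times in tumour 2 (25.1 CPM) and 8 times in tumour 4 (0.156 CPM). Dlx2 was read 1 time in tumour 1 (0.0233 CPM), 306 times in tumour 2 (28.3 CPM) and 67 times in tumour 4 (1.31 CPM). Tumour 2 was thus the highest for both Dlx genes and the lowest for both Gsx genes. The Dlx1 counts of tumours 1 and 4 overlapped in their intervals.

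Nkx2-2 and Barx2 followed another order. Nkx2-2, a repressor that promotes oligodendrocyte differentiation, had 18.0 CPM (16.7 to 19.3) for tumour 1, 108.0 (101.9 to 114.4) for tumour 2 and 98.7 (96.04 to 101.5) for tumour 4. Tumour 1 was low and the others lay close together, with intervals that just did not meet. Barx2 had 22.6 CPM (21.2 to 24.1), 47.8 (43.8 to 52.2) and 82.4 (80.0 to 85.0), lowest in tumour 1 and highest in tumour 4, with no overlap. Nkx6-2, a homeobox partner of Nkx2-2 in ventral patterning and a gene of myelinating oligodendrocytes, had 6.45, 312.1 and 208.7 CPM and was likewise lowest in tumour 1. These orders are over all neural cells. In OPC-like cells alone Barx2 had 20.6 CPM (19.1 to 22.3) in tumour 1 and 8.93 (2.90 to 20.8) in tumour 2, with intervals that met.

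The sort did not leave these transcripts to neural cells alone. Microglia-like cells, which should lack neural regional factors, carried the transgene element WPRE at 579.8 CPM in tumour 1 and 478.3 in tumour 4, against 589.5 and 819.4 in neural cells, but at 43.8 in tumour 2 against 420.6. The labels do not say which construct holds WPRE. Nkx2-2 was seen in 17.0% of neural and 11.6% of microglia-like cells of tumour 1, in 45.7% and 4.41% in tumour 2, and in 56.7% and 28.9% in tumour 4. Median depths of the neural and microglia-like cells were 12006 and 13201, 8125 and 7369, and 9494 and 8943 UMIs. In tumour 1 the shares of cells with Lhx2 (3.01%) and Pax6 (0.583%) were below those of microglia-like cells (3.47% and 2.31%), on 6 and 4 cells (intervals 1.28 to 7.40 and 0.633 to 5.81), so these transcripts are not told apart from background there. The same held for Dlx1 in tumour 4 (0.186% and 1.20%), and Dlx2 there was close to it (1.47% and 1.20%). In tumour 4 Gsx2 was seen in 13.9% of neural and 12.05% of microglia-like cells (interval 5.93 to 21.04). Lhx2 was seen there in 11.6% and 8.43% (3.46 to 16.6), so the microglia-like intervals of both held the neural shares. The same was true of Emx2 and Gsx1 in tumour 4 (6.02% and 7.23% of microglia-like cells). In tumour 1 it was true of Emx2 (15.2% and 10.4%, 6.28 to 15.9) and Gsx1 (11.9% and 8.09%, 4.49 to 13.2). Nkx2-2 was alike in tumour 1, with a microglia-like interval of 7.21 to 17.3. By level, Lhx2 and Gsx2 were higher in microglia-like than in neural cells of tumour 4. Microglia-like cells had 13.8 CPM of Lhx2 (7.32 to 23.5) and 16.9 of Gsx2 (9.68 to 27.5), intervals that held the neural levels. The part of free RNA, mixed droplets or misnamed cells in these values was not tested.

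The test of neural against microglia-like cells, paired by tumour, called none of the members. With edgeR's quasi-likelihood test and Benjamini-Hochberg adjustment over 12817 genes, 1147 genes (8.95%) were called at an adjusted p under 0.05, 47 (0.367%) higher and 1100 (8.58%) lower in neural cells. Of the 9 members 6 passed the filter on low counts and 0 of them were called. DESeq2, which called more genes than edgeR in this comparison, called Barx2. Of the 6, 2 (Emx2 and Barx2) had an unadjusted p under 0.05 with edgeR, a count given without the share over all genes. Barx2 came nearest, with a log2 difference of 1.66 ± 0.47 (SE) and an edgeR adjusted p = 0.0984. It was higher in neural cells in 3 of 3 tumours, at 22.6 against 11.0 CPM, 47.8 against 2.58 and 82.4 against 26.5. Barx2 was called in 4 of 12 alternatives (adjusted p from 0.00083, without tumour 2, to 0.338). The fits that left out 1 tumour called from 736 to 2649 genes in all. Emx2 (14.03 against 7.23 CPM, 10.4 against 0.736, 11.2 against 5.29), Gsx1 and Nkx2-2 were also higher in neural cells in all 3 tumours, with adjusted p-values of 0.191, 0.216 and 0.222. The median log2 fold change of the 6 tested members was 1.24, against 0.15 over all genes tested. Pax6, Dlx1 and Dlx2 were too rare in tumours 1 and 4 to be tested; in tumour 2 they stood at 24.5 against 3.31, 25.1 against 1.84 and 28.3 against 0.736 CPM.

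Within tumour 2 the Dlx transcripts were gathered in neuroblast-like cells. A cluster of 36 cells, led by Dlx6os1 and Igfbpl1, had 483.3 CPM of Dlx1 (398.6 to 580.6), 356.1 of Dlx2 (284.0 to 440.9) and 139.9 of Pax6 (96.3 to 196.5). In the same 36 cells Barx2 had 0 UMIs and Nkx2-2 had 2 UMIs (8.48 CPM). Lhx2 (33.9 CPM, 14.6 to 66.8) and Emx2 (12.7, 2.62 to 37.2) had intervals that held the levels of all neural cells of the tumour. So did Gsx2 (1 UMI) and Gsx1 (0 UMIs, interval 0 to 15.6 CPM). A cycling cluster of 54 cells, led by Top2a and Ube2c, which scored 4.36 for the neuroblast list and 4.25 for the OPC list, had 129.3 CPM of Dlx1, 76.4 of Dlx2, 152.8 of Pax6, 70.5 of Lhx2 and 17.6 of Gsx2. Dlx1 and Dlx2 were not confined to these clusters, however. In the 8 other neural clusters of tumour 2 with at least 50 cells, Dlx1 ranged from 3.57 CPM (2 UMIs) to 22.7 and Dlx2 from 10.7 to 29.3, beside 1.84 and 0.736 CPM in microglia-like cells.

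Other genes of the ventral telencephalon were high in the same cells. Only the members were kept out of the clustering, so these other genes could help to form the clusters. Dlx6os1 and Sp8 were among the leading genes of the cluster led by Dlx6os1 and Igfbpl1. Their levels there, and the gathering of Dlx1 and Dlx2 with them, are therefore not independent of how the cells were grouped. In the 90 neuroblast-like cells of tumour 2, Meis2, a cofactor of striatal and olfactory progenitors, had 648.3 CPM, Dlx6os1 263.9, Sp8 93.8, Sp9 44.2 and Dlx6 16.1. In all neural cells of that tumour the same genes had 115.2, 20.2, 7.59, 3.42 and 1.296 CPM. Markers of the medial ganglionic eminence were near 0 there, with 2 UMIs of Lhx6 and 0 of Nkx2-1 in these cells, and the pallial genes Emx1, Eomes and Tbr1 had 0 UMIs. The 115 neuroblast-like cells of tumour 4, led by Btbd17 and Gal, had 0 UMIs of Dlx1 and Pax6 and 1 of Dlx2. They carried 33.4 CPM of Gsx2 (24.4 to 44.8), 31.2 of Emx2 (22.5 to 42.2) and 22.3 of Lhx2 (15.05 to 31.8), each the highest or next to highest of that tumour's clusters. The Dlx genes and Pax6, high in these cells of tumour 2, were thus at or near 0 in those of tumour 4.

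In tumour 2, 53 of 1054 neural cells held both Dlx genes, and cells with Dlx1 more often held Dlx2. Of its 108 neural cells with Dlx1, 49.1% (39.3 to 58.9, exact binomial) also had Dlx2, against 11.7% (9.75 to 13.96) of the 946 without, at median depths of 8593 and 8113 UMIs. Of 149 cells with Pax6, 40.3% (32.3 to 48.6) had Dlx1 or Dlx2, against 17.6% (15.1 to 20.2) of the others, at 8692 and 8005 UMIs. Co-occurrence of the dorsal factor Emx2 with the ventral Gsx genes varied: 18.9% of cells with Emx2 and 18.9% without it had Gsx1 or Gsx2 in tumour 1, 11.5% (5.86 to 19.6) and 7.93% (6.30 to 9.83) in tumour 2, and 29.9% (25.9 to 34.1) and 23.5% (22.1 to 24.8) in tumour 4. For Gsx2 alone the gap in tumour 2 was 9.38% (4.38 to 17.1) against 1.77% (1.04 to 2.83), on 9 of 96 and 17 of 958 cells. The cells with Emx2 were deeper, at a median of 14455 against 11654 UMIs in tumour 1, 9541 against 8038 in tumour 2 and 11731 against 9263 in tumour 4. Cells with a UMI of either Dlx gene carried WPRE at 425.6 CPM (401.9 to 450.4) in tumour 2, and cells without at 418.9 (404.8 to 433.3). The 56 cells with 3 or more Dlx UMIs had 525.0 CPM (469.3 to 585.4), apart from the cells without.

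**Figure D2:**
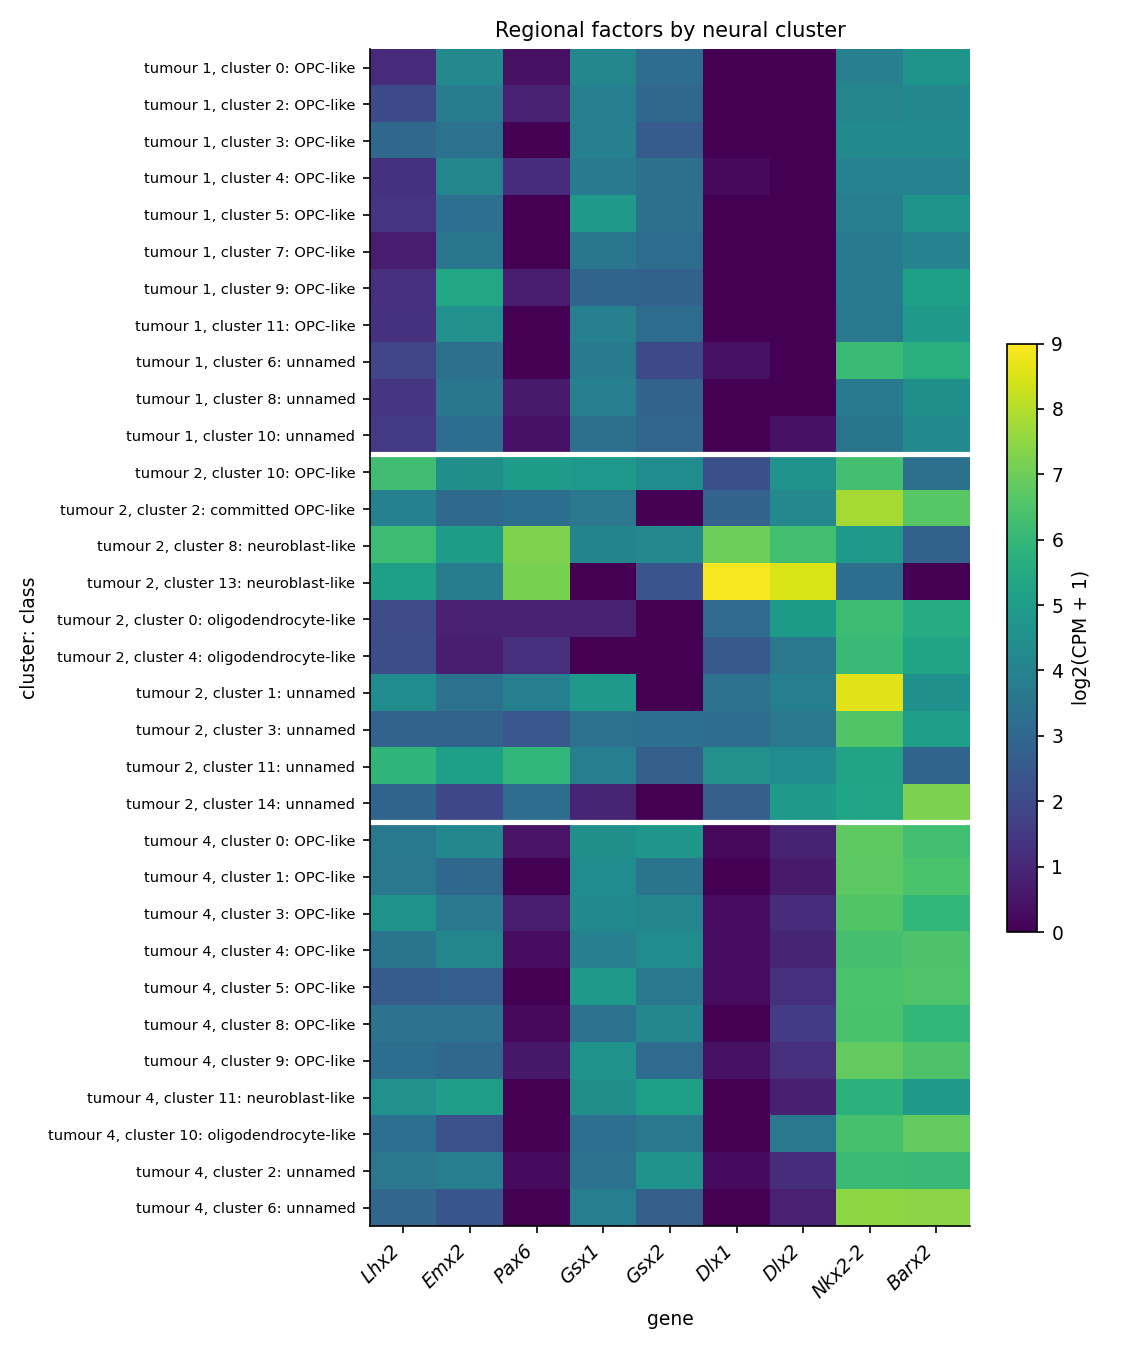
Levels of the 9 genes, as log2(CPM + 1), in each neural cluster of at least 30 cells in tumours 1, 2 and 4, with the class of each cluster. Dlx1 and Dlx2 are brightest in the 36-cell cluster of tumour 2 (483.3 and 356.1 CPM), and Nkx2-2 in cluster 1 of the same tumour (389.9 CPM).

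Nkx2-2 and Barx2 were highest in clusters that carried genes of committed OPCs or of myelinating cells. In tumour 2 Nkx2-2 reached 389.9 CPM (351.2 to 431.7) in a cluster led by 3110035E14Rik, C1ql1 and Gpr17 (a receptor of committed OPCs) and 221.8 (197.0 to 248.9) in the committed OPC-like cells. It was lower in that tumour's OPC-like (78.6 CPM) and oligodendrocyte-like (64.5 CPM) cells. Its highest cluster in tumour 1 (69.6 CPM, 60.4 to 79.7) had the myelin gene Mbp among its leading genes, and that in tumour 4 (176.9 CPM, 164.0 to 190.5) was led by Mag, a gene of myelinating cells, and Rab33a. The same 2 clusters were highest for Barx2, at 49.98 CPM (42.3 to 58.7) in tumour 1 and 170.0 (157.4 to 183.4) in tumour 4. In tumour 2 Barx2 was at 149.1 CPM (126.9 to 173.9) in an unnamed cluster with oligodendrocyte markers, 100.5 in committed OPC-like cells and 8.93 in OPC-like cells. In each tumour both genes thus had their highest cluster outside the named OPC-like class. That rests in part on the naming rule, which left a cluster unnamed where its leading genes pointed to another list. By score the OPC list was the best for the highest Nkx2-2 cluster of every tumour. In tumour 1 it scored 4.91 (next oligodendrocyte, 2.56) and in tumour 2 5.33 (next committed OPC, 4.83). In tumour 4 it scored 4.10 (next oligodendrocyte, 3.44).

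Cells with Nkx2-2 more often held Barx2 as well. In tumour 1 31.1% (27.2 to 35.3) of cells with Nkx2-2 and 20.4% (18.9 to 22.0) of cells without it had Barx2, at median depths of 13571 and 11686 UMIs. The shares were 28.4% and 18.4% in tumour 2, at 10660 and 6390 UMIs, and 54.9% and 41.7% in tumour 4, at 11603 and 7596 UMIs. Depth was higher in the cells with Nkx2-2 in every tumour, and its part in these shares was not tested.

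Cells were also split by myelin, a comparison chosen after the cluster levels had been seen. Neural cells of each tumour were ranked by UMIs of the oligodendrocyte marker list at an equal depth of 2000 UMIs, and cells of high count (1177, 358 and 1673 in tumours 1, 2 and 4) were compared with cells of low count (1913, 366 and 1688). No gene was called by edgeR of 13986 tested (0%), where 326 had an unadjusted p under 0.05 and DESeq2 called 63. Nkx2-2 stood at 25.3 against 13.4 CPM (myelin-rich against myelin-poor) for tumour 1, 75.6 against 76.4 for tumour 2 and 126.1 against 78.2 for tumour 4 (log2 difference 0.62 ± 0.19, edgeR adjusted p = 0.691), and without tumour 2 it was called (0.79, adjusted p = 0.0256). Barx2 was higher in myelin-rich cells in 3 of 3 tumours, at 27.9 against 19.3, 75.01 against 8.64 and 111.6 against 57.1 CPM (1.495 ± 0.63, adjusted p = 0.691). Gsx2 was lower in 3 of 3, at 6.87 against 7.25, 2.54 against 8.64 and 10.1 against 23.0 CPM (-0.85 ± 0.34, adjusted p = 0.691). Lhx2 (-0.88 ± 0.72), Emx2 (-0.996 ± 0.58), Gsx1 (-0.44 ± 0.50) and Dlx2 (-0.85 ± 0.46) also had values below 0, with edgeR adjusted p-values from 0.691 to 0.717. In tumour 1 the split parted cells with 2 or more marker UMIs from cells with at most 1, so it was coarse there.

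Where both classes were named, in tumours 2 and 4, Emx2 and Gsx1 were higher in OPC-like than in oligodendrocyte-like cells. Emx2 stood at 21.4 against 1.26 CPM in tumour 2 and 11.1 against 3.74 in tumour 4. Gsx1 stood at 26.8 against 0.629 CPM in the former tumour and 18.99 against 8.73 in the latter. The direction was the same in both tumours, and the gap was wider in tumour 2 for both genes. The paired edgeR fit over 10775 genes called 648 (6.01%), 195 (1.81%) higher and 453 (4.2%) lower in OPC-like cells. Of 7 members tested, 2 were called, both higher: Emx2 by 2.95 ± 0.87 on the log2 scale (SE, edgeR adjusted p = 0.0453) and Gsx1 by 2.88 ± 0.84 (adjusted p = 0.0435). These calls were fragile. Emx2 was called in 0 of 7 alternatives (adjusted p from 0.0586 to 0.707) and Gsx1 in 1 of 7 (0.0204 to 0.851), and the oligodendrocyte-like counts behind them were 2 to 7 UMIs. Emx2 also passed the filter on low counts through its OPC-like sums alone, so that filter favoured a call in this direction.

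Lhx2 missed the threshold narrowly. It had 75.03 CPM in OPC-like and 4.72 in oligodendrocyte-like cells of tumour 2, and 12.3 and 8.73 in tumour 4 (2.47 ± 0.74, edgeR adjusted p = 0.0503), and was called in 1 of 7 alternatives. Gsx2 had 19.7 CPM and 0 UMIs in tumour 2 and 16.1 and 11.2 CPM in tumour 4 (adjusted p = 0.153). Nkx2-2 had a small difference with a wide error, at 78.6 against 64.5 and 96.4 against 82.3 CPM (0.27 ± 0.47, adjusted p = 0.87), and Barx2 was lower in OPC-like cells of both tumours, at 8.93 against 42.8 and 77.03 against 113.5 CPM (-1.16 ± 0.53, adjusted p = 0.246). Dlx2 stood at 23.2 against 18.9 CPM for tumour 2 and 1.19 against 11.2 for tumour 4, the last on 9 UMIs (-1.35 ± 0.79, edgeR adjusted p = 0.416).

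**Figure D3:**
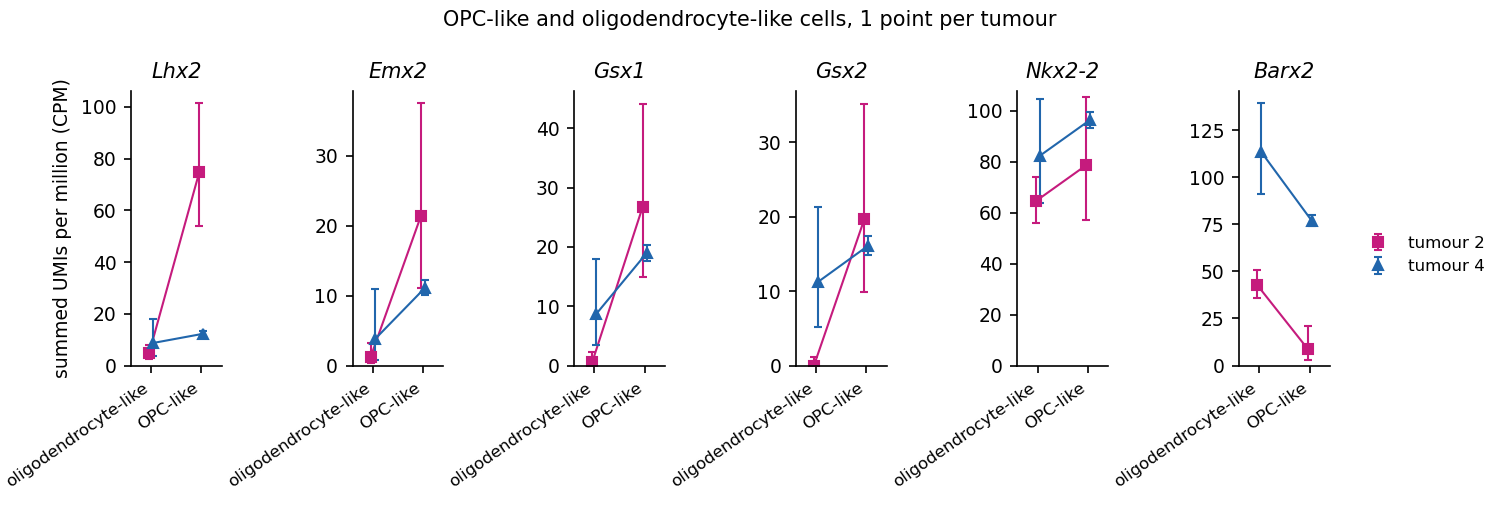
Levels (CPM) of 6 of the genes in oligodendrocyte-like and OPC-like cells of tumours 2 and 4, 1 point per tumour with exact 95% Poisson intervals, joined within a tumour. Emx2 and Gsx1 are higher in OPC-like cells of both tumours, and Barx2, which did not pass the test, is lower there (8.93 against 42.8 and 77.03 against 113.5 CPM).

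The transgene and the class sizes moved with this comparison. WPRE had 718.1 CPM in OPC-like and 154.5 in oligodendrocyte-like cells of tumour 2, and 840.3 and 634.7 in tumour 4, and the classes held 85 and 238 cells in tumour 2 and 3354 and 72 in tumour 4. Their part in the result was not tested. Among other regional genes, Meis2 (173.3 against 21.7 CPM in tumour 2, 53.4 against 26.2 in tumour 4) and the LIM cofactor genes Lmo1 and Lmo4, whose products bind the same partner as LIM-homeodomain factors, were higher in OPC-like cells (adjusted p = 0.0235, 0.016 and 0.0329). Nkx6-2 was lower, at 17.9 against 620.95 and 191.1 against 557.4 CPM (-3.07 ± 0.65, edgeR adjusted p = 0.00473).

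Lhx2 was higher in cycling than in non-cycling neural cells of every tumour, in tumour 1 at levels not told apart from background. In tumour 4 its levels were not told apart from background either, with 13.8 CPM (7.32 to 23.5) in microglia-like cells. Cells were called cycling with at least 5 UMIs of a list of cell cycle genes at 2000 UMIs per cell, and non-cycling with at most 1. Lhx2 had 3.29 CPM (2.52 to 4.22) in cycling and 0.796 (0.364 to 1.51) in non-cycling cells of tumour 1. It had 46.5 (36.5 to 58.4) and 16.4 (13.4 to 19.8) in tumour 2, and 17.3 (15.3 to 19.4) and 8.49 (7.33 to 9.79) in tumour 4. No interval of a cycling group met that of its non-cycling group. The paired edgeR fit over 13525 genes called 417 (3.08%), 395 (2.92%) higher and 22 (0.163%) lower in cycling cells. Of the 7 members tested Lhx2 alone was called, higher by a log2 difference of 1.32 ± 0.21 (SE, edgeR adjusted p = 0.0379). It was called in 12 of 14 alternatives, though not without the tumour block (adjusted p = 1) nor when 10 cycling UMIs were required (adjusted p = 0.0618). The transgene element WPRE stood at 591.5 against 574.9 CPM for tumour 1, 646.3 against 338.2 for tumour 2 and 773.7 against 830.7 for tumour 4, and its part in the result was not tested.

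The change in Lhx2 was also measured within 1 class. In OPC-like cells alone, which left tumours 1 and 4, it was 1.22 ± 0.21 (edgeR adjusted p = 7.31e-06), in a fit that called 3423 genes. In both of these tumours the Lhx2 level of all neural cells lay within the interval of microglia-like cells. The same change was called over all neural cells without tumour 2 (adjusted p = 1.73e-10), in a fit that called 4474 genes. At an equal depth of 2000 UMIs, the share of cells with Lhx2 was 0.789% of cycling and 0.106% of non-cycling cells for tumour 1, 9.33% against 4.83% for tumour 2 and 4.22% against 1.76% for tumour 4. Without thinning the shares were 5.09% and 0.957%, 37.3% and 12.1%, and 18.0% and 8.32%, at median depths of 14660 and 11076, 8125 and 8243, and 10738 and 9113 UMIs. Without tumour 1 the change was 1.16 ± 0.33 (edgeR adjusted p = 0.049). In tumour 1 the thinned shares are near the level of single UMIs and the unthinned share of microglia-like cells was 3.47%. In tumour 2 the change was not measured within 1 class. There the 54-cell cluster led by Top2a, all cycling, held 36 Lhx2 UMIs (70.5 CPM). Oligodendrocyte-like clusters of 109 and 107 cells, with 2.75% and 2.80% cycling, had 3.16 and 3.36 CPM, and one of 22 cells, all cycling, had 14.1. The part of cell class in the change of tumour 2 was not tested.

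**Figure D4:**
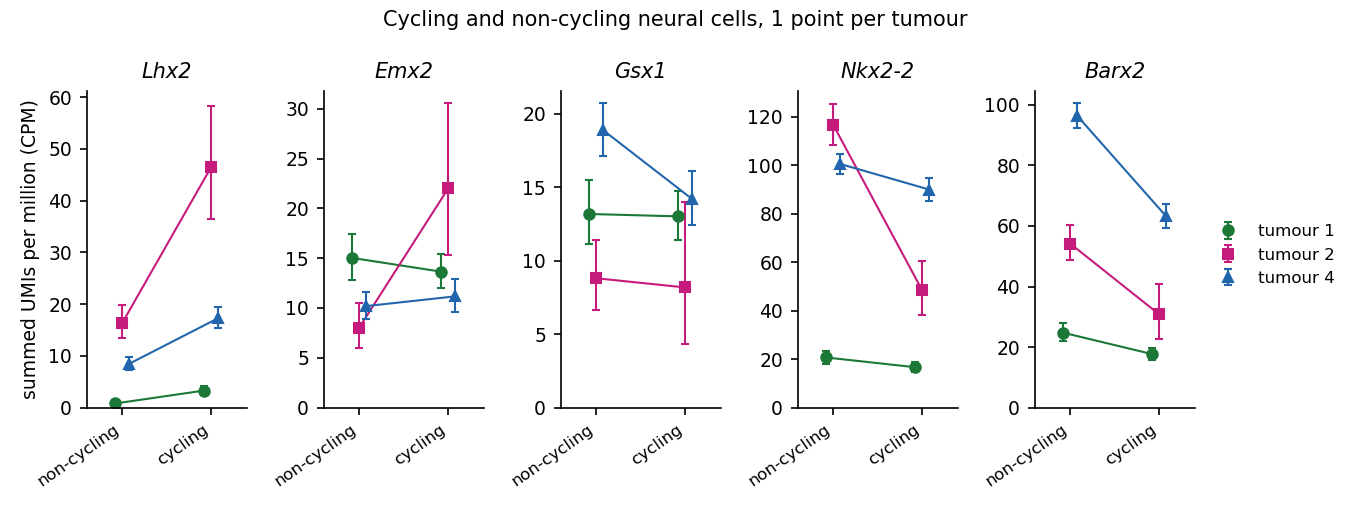
Levels (CPM) of 5 of the genes in non-cycling and cycling neural cells of tumours 1, 2 and 4, 1 point per tumour with exact 95% Poisson intervals, joined within a tumour. Lhx2 rises in all 3 tumours (0.796 to 3.29, 16.4 to 46.5 and 8.49 to 17.3 CPM), and Barx2 lies lower in cycling cells of all 3 with an adjusted p of 0.109.

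The other members did not pass this test. Barx2 was lower in cycling cells of all 3 tumours, at 17.7 against 24.8, 30.8 against 54.2 and 63.2 against 96.4 CPM (-0.68 ± 0.16, edgeR adjusted p = 0.109), and was called in 3 of 14 alternatives, among them without tumour 2 (adjusted p = 1.66e-07). Nkx2-2 was at 16.7 against 20.7, 48.4 against 116.7 and 89.97 against 100.5 CPM (-0.61 ± 0.28, adjusted p = 0.306). Pax6, not tested for its low counts in tumours 1 and 4, had 77.3 CPM in cycling and 14.7 in non-cycling cells of tumour 2, and Dlx1 57.2 and 17.0. The 54-cell cluster led by Top2a held 78 Pax6 and 66 Dlx1 UMIs, of the 123 and 91 in all cycling neural cells of that tumour. Emx2, Gsx1, Gsx2 and Dlx2 had log2 fold changes from -0.24 to 0.48 with adjusted p-values from 0.454 to 0.721. The median over the 7 tested members was 0.22, against -0.04 over all genes tested.

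Cycling cells were then divided into S phase and G2 or M phase by which of 2 gene lists had more UMIs, a comparison added after the cluster levels had been seen. Clusters led by S-phase genes had the most Lhx2 in tumour 1 (6.98 CPM, 4.74 to 9.91, in a cluster led by 2810417H13Rik and Tcf19) and tumour 4 (23.4, 20.3 to 26.97, in a cluster led by 2810417H13Rik and Rrm2). In tumour 2 the highest was instead the OPC-like cluster led by Pdgfra (75.03 CPM, 54.1 to 101.4), of whose cells 9.41% were cycling. Lhx2 had 5.59 CPM in S phase and 2.86 in G2 or M phase in tumour 1, 41.5 and 46.05 in tumour 2 (7 UMIs in 20 S-phase cells), and 27.3 and 14.4 in tumour 4. Over 11119 genes edgeR called 366 (3.29%), 114 (1.03%) higher and 252 (2.27%) lower in S phase, and 0 of the 6 members tested. DESeq2 also called none of them, and Lhx2 alone had an unadjusted p under 0.05, a count given without the share over all genes. Its log2 fold change was 0.76 ± 0.23 (adjusted p = 0.0887), and it was called in 3 of 12 alternatives. Without tumour 2 it was 0.92 ± 0.21 (adjusted p = 0.000564). Emx2 (-0.37), Gsx1 (0.47), Gsx2 (0.04), Nkx2-2 (0.13) and Barx2 (0.17) had edgeR adjusted p-values from 0.376 to 0.963.

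Beyond the 9 genes, few other regional factors were present. Of 9 pallial genes 0 reached 10 CPM in the neural cells of any tumour, and of 12 midbrain and hindbrain genes and 39 Hox genes, which mark hindbrain and spinal levels, 0 did so either. The ventral list of 11 genes gave Meis2 in all 3 tumours (111.4, 115.2 and 51.9 CPM). Six3, a gene of the anterior forebrain and eye field, was not read in tumour 1 and stood at 10.3 CPM for tumour 2 and 26.3 for tumour 4, beside 34.9 in the microglia-like cells of the latter. Irx1 and Irx5, of 10 diencephalic genes, reached 11.2 and 10.2 CPM in tumour 4 alone. Nkx2-9, a neighbour of Nkx2-2 in function, reached 13.3 CPM in tumour 2 and had 0 in tumour 1. The LIM cofactor genes, which LIM-homeodomain factors such as Lhx2 need or compete for, were general: Ldb1 had 26.6, 20.1 and 31.5 CPM, Lmo4 310.02, 119.1 and 252.996, and Lmo1 96.6, 19.8 and 117.6. Of the pallial, ventral, eye field, diencephalic and midbrain or hindbrain lists, 1 to 3 genes each could be tested between neural and microglia-like cells and between cycling and non-cycling cells, and 0 were called by edgeR in either. In the first of these tests Lmo2 (-5.37 ± 0.45, edgeR adjusted p = 0.00201) was lower in neural cells. So was Hoxb4, with 2, 0 and 0 UMIs in neural and 7, 5 and 2 in microglia-like cells of tumours 1, 2 and 4 (adjusted p = 0.0145). Hoxb4, the 1 Hox gene of 39 that was tested, passed the filter on low counts through its microglia-like sums alone. That filter favoured a call in this direction.

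**Figure D5:**
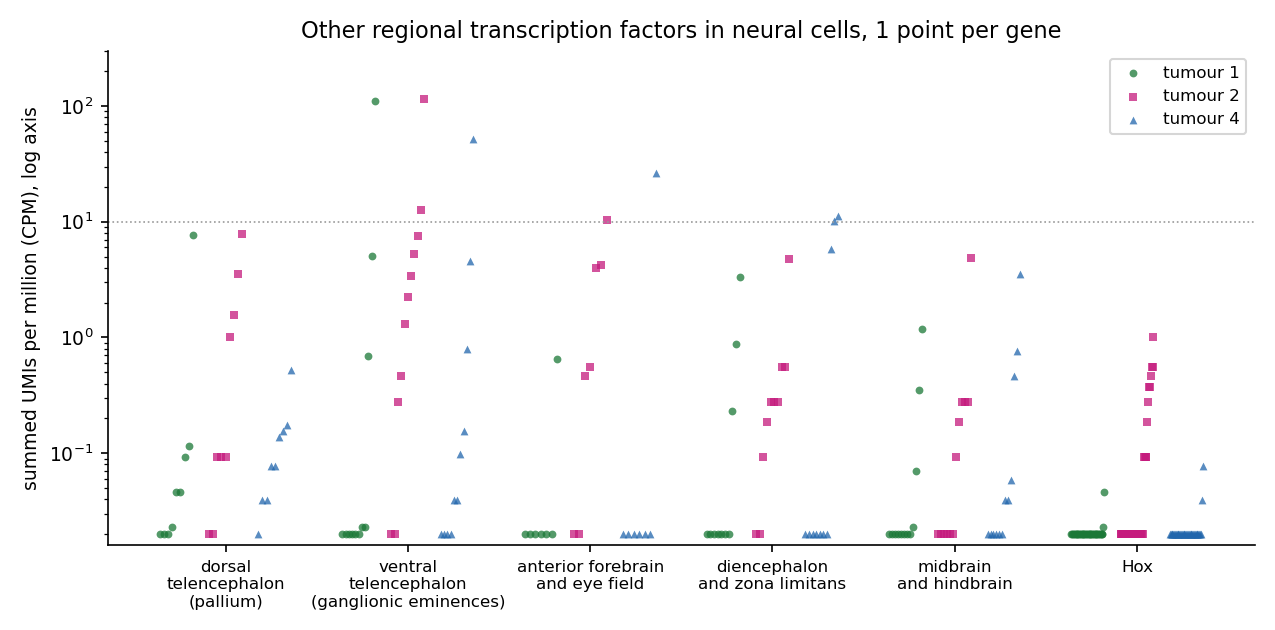
Levels (CPM, log axis) in neural cells of tumours 1, 2 and 4 of other regional transcription factor genes, 1 point per gene, by list. The dotted line is at 10 CPM and genes under 0.02 CPM are drawn at 0.02. No pallial, midbrain, hindbrain or Hox gene reaches the line in any tumour, while Meis2 stands at 111.4, 115.2 and 51.9 CPM.

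The opposite-strand partners were also read. Emx2os had 3.35, 2.31 and 3.54 CPM in tumours 1, 2 and 4, Nkx2-2os 0.0233, 3.24 and 0.196, and Dlx1as 0 UMIs, 2.22 CPM and 0.0391 CPM. Pax6os1 had 2 UMIs in tumour 2 and 0 in the others. Dlx1as and Dlx6os1 (20.2 CPM in tumour 2, at most 1 UMI in the other tumours) had the same tumour order at the top as Dlx1 and Dlx2.

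Genes of most similar pattern were sought over the 31 neural clusters of at least 50 cells, by Pearson's r of log2(CPM + 10) among 8712 or 8713 genes. The clusters share libraries and depth, so r is a description. Nkx2-2 was most like Bcas1 (r = 0.947), a gene of newly forming oligodendrocytes, followed by Cobll1 (0.886) and Rubcn (0.882). Barx2 was most like Fscn1 (0.859), an actin-bundling protein, Them6 (0.815) and Pcbp4 (0.808). Pax6 was most like Dbx2 (0.939), itself a homeobox gene, Gem (0.932) and Slc16a6 (0.90). Lhx2 was most like Zfp36l1 (0.908), an RNA-binding protein, Camta1 (0.901) and Rlim (0.892). For Emx2, Ogfrl1 (0.858) and Ier5 (0.831) ranked the second and the third. Gsx1 was most like Dpysl3 (0.847) and Ttc3 (0.84), and Gsx2 like Pou2f2 (0.847), Ier5l (0.842) and Siah1a (0.834). For Dlx1 the closest was Nmrk1 (0.896) and for Dlx2 Slc43a2 (0.908). With each tumour's mean removed, r was 0.556 for Dlx2 and Slc43a2 and 0.901 for Nkx2-2 and Bcas1.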

How the data were processed

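The authors deposited tables of raw UMI counts, 1 per tumour, made with Cell Ranger 1.3.0, STAR 2.5.1 and build mm10, per the submitters' processing notes. The normalized tables were not used. A minimum of 500 genes per cell and a maximum of 20% mitochondrial UMIs were required, and cells were clustered per tumour with scanpy 1.11.5 (2000 variable genes, 30 components, 15 neighbours, Leiden resolution 1), without the 9 genes. Clusters were named from marker lists, by a rule revised after marker levels had been seen. Members and lists were chosen with earlier results of these data known.

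UMIs were summed per tumour and class or state. Sums were tested with edgeR 4.0.16 (quasi-likelihood, the tumour as a block since both sums come from 1 animal, Benjamini-Hochberg adjustment over all genes tested, threshold 0.05), with DESeq2 1.42.0 as an alternative. The tests were tried on simulated data. SE is the fold change over the root of the F statistic. Scrublet called 0, 7 and 0 doublets and was taken not to work, so an alternative chosen after seeing the data left out the 91, 20 and 162 cells of highest score. The members the filter on low counts let through are given in each comparison, other regional genes where they reach 10 CPM or are called, and for likeness the 3 genes of highest r. Some genes that this rule names are not reported here.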

Additional observations from a re-analysis of the deposited data

How the results depend on the processing

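The sums compared come from the same tumour, so the block is a pairing by animal. Without the replicate block the calls fell from 1147 to 587 (neural against microglia-like), from 417 to 80 (cycling), from 648 to 0 (OPC-like against oligodendrocyte-like) and from 366 to 0 (S against G2 or M phase). DESeq2 called 1825 (371 higher, 1454 lower), 769 for cycling (557 higher, 212 lower), 63 for myelin and 125 for phase (14 higher, 111 lower). Leaving out 1 tumour at a time gave 736 to 2649, 351 to 4474, 0 to 50 and 84 to 1111 calls for the neural, cycling, myelin and phase comparisons. Leiden resolution 2 gave 2255 neural calls (690 higher, 1565 lower). For cycling, no filter on low counts gave 753 and OPC-like cells alone 3423. For OPC-like against oligodendrocyte-like cells, no cell filter gave 0, resolution 2 gave 21, naming by marker level alone 358 and leaving out the highest Scrublet scores 425. The stricter cell filter gave 736 for phase. That filter and resolution 0.5 left 1 tumour with both oligodendrocyte-lineage classes, as did leaving out either tumour, so no test was possible there. The causes were not tested.

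Log2 fold changes of members reversed in sign in 12 cases, the largest of them -0.44 for Gsx2 between phases. In OPC-like cells alone cycling gave -0.054 for Emx2 and -0.028 for Gsx2. Nkx2-2 was -0.16 without a cell filter and -0.23 at resolution 2 between OPC-like and oligodendrocyte-like cells. For phase, Gsx2 was -0.055 with DESeq2 and -0.0022 without a cell filter. Leaving out 1 tumour gave ranges of -0.27 to 1.34 for Lhx2 (neural), -0.014 to 0.26 for Dlx2 (cycling), -0.86 to 0.085 for Gsx1 (myelin), and for phase -0.043 to 0.63 for Gsx1, -0.44 to 0.19 for Gsx2 and -0.19 to 0.21 for Barx2. Low counts in tumours 1 and 4 kept Pax6 and Dlx1 out of all 5 comparisons and Dlx2 out of 2.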
